A study of Mus musculus with 10 samples.

Results

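The 10 genes described here encode the mTOR kinase, its partner proteins in mTOR complex 1 (mTORC1) and mTOR complex 2 (mTORC2), and the GTPase Rheb, which switches mTORC1 on. They are Mtor, Mlst8, Deptor, Rptor, Akt1s1, Rheb, Rictor, Mapkap1, Prr5 and Prr5l, taken by symbol from the 56748 genes of the deposited count table, and each symbol matched 1 gene. RNA-seq was performed on primary adipocytes grown from the stromal vascular fraction (SVF) of inguinal fat and put through adipogenic differentiation. The control group had the genotype Fam20c-flox (5 libraries), and the KO group had the genotype Fam20c-flox/Adipoq-Cre (5 libraries), so both groups carried the floxed allele and both received the same differentiation treatment. Fam20c is a kinase of the secretory pathway, and the comparison asks which transcripts differ when it is deleted by a Cre whose adiponectin promoter is active in maturing adipocytes but not in their precursors. According to the methods, the SVF came from male mice aged 6 to 8 weeks. The labels do not say whether the 5 libraries of a group came from separate mice or cultures, so the p-values given here measure the spread between these libraries.

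mTOR is a protein kinase that joins nutrient and insulin signals to cell growth. In mTORC1, the scaffold raptor (Rptor) presents substrates such as the S6 kinases and the 4E-BP translation repressors, and in mTORC2 the scaffold rictor (Rictor), together with SIN1 (Mapkap1), directs the kinase to AKT, SGK and protein kinase C. In adipocytes, mTORC1 is known for its part in adipogenesis and lipid synthesis, and mTORC2 for its part in the insulin response. These complexes are controlled largely through protein interactions, phosphorylation and location at the lysosome, none of which RNA-seq measures.

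Total counts were 18949106 to 26237825 per control library and 19883101 to 23291792 per KO library, and the libraries of a group differed by more than sampling noise. On the first principal component, which held 23.5% of the variance, control 4 and KO 1 lay apart from the rest of their groups. The targeted gene, Fam20c, was lower in each KO library than in each control library (log2 fold change -0.49, SE 0.093, adjusted p = 0.0137 in the edgeR quasi-likelihood test, with Benjamini-Hochberg adjustment over all genes). On the linear scale this was a fold of 0.711 (interval of the fit 0.618 to 0.818). Most of the Fam20c signal thus remained in the KO libraries, which had 134 to 168 counts each. Counts per gene do not separate the floxed part of Fam20c from the rest, so they cannot show how complete the deletion was. The results for other genes therefore describe these KO libraries and not a full loss of Fam20c transcript. All 14 adipocyte markers were measured and none was at 0 in all libraries. Their summed level was 33380 to 34110 CPM (counts scaled to library size) in control and 34910 to 36970 CPM in KO libraries. Of the 14 markers, 11 had a fold change above 0 and 3 below, with 0 called. The 22 endothelial markers summed to 239 to 286 CPM in control and 111 to 154 CPM in KO libraries, and all 22 had a fold change below 0, with 19 of them called lower in KO. In such bulk samples, fewer cells of a type and less RNA per cell cannot be told apart. Of the remaining marker lists, the macrophage sum was 1466 to 2258 CPM in control and 1292 to 2146 CPM in KO libraries. There, 7 of 12 genes were below 0 and 0 were called. The progenitor sum was 690 to 946 CPM and 681 to 798 CPM, with 7 of 8 below 0 and 2 called lower. The mural sum was 175 to 230 CPM and 140 to 192 CPM, with all 6 tested genes below 0 and 0 called.

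All 10 genes were expressed in the cultures, with 81 to 2952 counts per library, and they differed widely in level. The scale for comparing genes was CPM per kilobase of exon, with exons merged over all transcripts of GENCODE M21 on GRCm38. On this scale Akt1s1 and Prr5 had the highest means over the 10 libraries, 19.1 and 18.5 CPM per kb. Mapkap1 followed at 15.4, Rheb at 13.7 and Mtor at 11.1 CPM per kb. Mlst8 (7.69 CPM per kb), Deptor (7.59) and Rptor (4.05) were lower, and Rictor (1.23) and Prr5l (1.04) were the lowest. The library values of Akt1s1 and Prr5 overlapped, as did those of Mapkap1 and Rheb, of Mlst8 and Deptor, and of Rictor and Prr5l, while the other neighbours in this order did not overlap. With the longest transcript as the length, Rheb moved to the place after Akt1s1 (26.1 and 26.7 CPM per kb), Rptor (8.28) came before Deptor (7.88), and Rictor and Prr5l stayed lowest at 2.24 and 1.205 CPM per kb. The scaffold of mTORC1 was therefore higher than that of mTORC2 with either length.

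**Figure D1:**
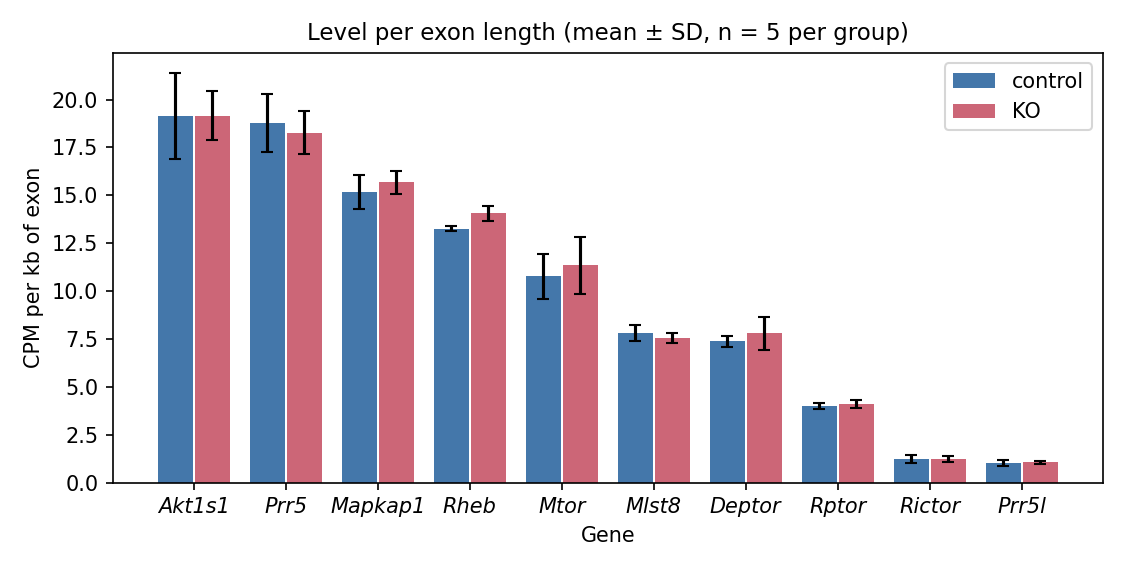
Level of each gene in CPM per kilobase of merged exon (vertical axis) in control (blue) and KO (red) libraries, with bars at the mean and error bars at the SD over 5 libraries. Akt1s1 and Prr5 are highest near 19 CPM per kb, Rictor and Prr5l are lowest near 1 CPM per kb, and the bars of a gene's groups are close in height.

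No change of the 10 transcripts was detectable between KO and control libraries after adjustment over all genes. All 10 passed the filter on low counts, and 0 of 10 were called at an adjusted p limit of 0.05 by edgeR's quasi-likelihood test, against 2.17% of the 14270 genes tested (1.86% lower and 0.308% higher in KO). DESeq2 and limma voom also called 0 of the 10. With edgeR, 1 member (Rheb) had an unadjusted p under 0.05, as did 11.9% of all genes tested (4.43% with a higher level in KO). The log2 fold change of KO against control was above 0 for 8 members and below 0 for 2, with a median of 0.028, and the median over all genes was -0.00085. None of the 95% intervals reached below 0.835-fold or above 1.22-fold, and those of 7 members lay within 1.2-fold in either direction. The intervals of Mtor, Prr5l and Rictor were the widest. The pooled SD of log2 CPM within groups was 0.18, 0.19 and 0.23 for these genes, against a median of 0.135 over all genes. Without control 4 and KO 1, again 0 of 10 were called.

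**Figure D2:**
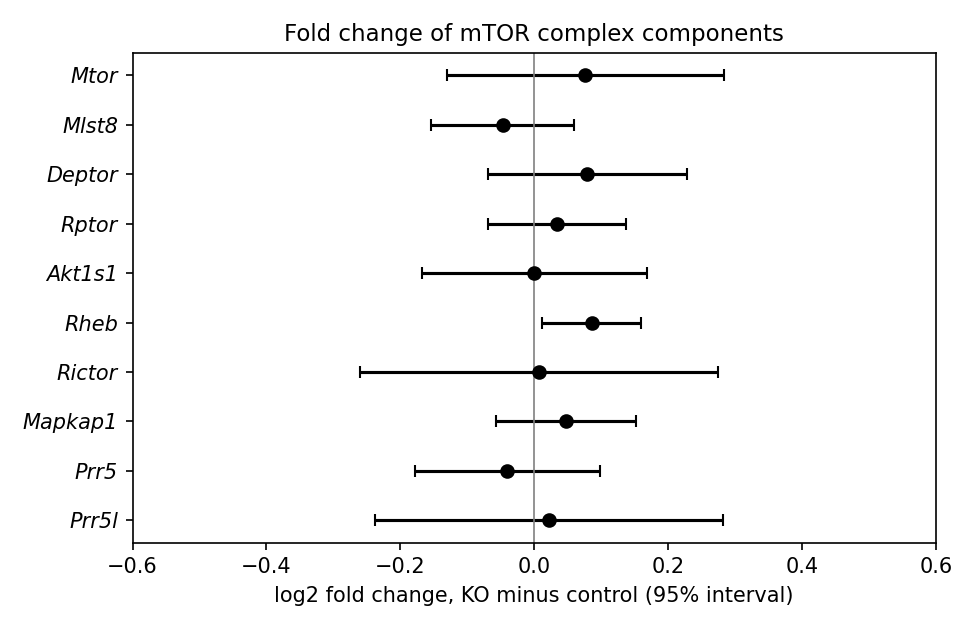
Log2 fold change of KO against control (horizontal axis) for each of the 10 genes, with points at the edgeR estimate and bars at the 95% interval. The intervals of 9 genes cross 0 and that of Rheb runs from 0.011 to 0.16.

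Mtor, Mlst8 and Deptor encode the proteins that both complexes share. Mtor, the catalytic subunit, lies on the plus strand of chromosome 4 (148448611 to 148557683). In library order 1 to 5, the controls were at 119, 111, 89.5, 117 and 108 CPM and the KO libraries at 114, 128, 90.7, 114 and 127 CPM. Library 3 was the lowest in each group, and the groups overlapped over nearly their whole range. The mean was 109 ± 11.7 CPM in control and 115 ± 15.1 CPM in KO (SD, n = 5 each), a log2 fold change of 0.076 (SE 0.096, 95% interval -0.13 to 0.28, edgeR adjusted p = 0.856).

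Mlst8, a WD-repeat protein that binds the kinase domain, lies on the minus strand of chromosome 17 (24473551 to 24479078). It had 36.9, 34.3, 35.8, 31.9 and 34.5 CPM in the control libraries and 33.1, 31.7, 33.9, 34.8 and 34.2 CPM in the KO libraries. The KO libraries lay almost wholly inside the control range. The log2 fold change was -0.047 (SE 0.049, 95% interval -0.15 to 0.059, edgeR adjusted p = 0.809). In the annotation, 22.5% of its exon bases are also exon of Bricd5 on the opposite strand. The strand setting of the counting is not given in the sources used here, so reads of these genes may be mixed. Of the other members, Deptor, Rptor, Akt1s1 and Prr5l share at most 3.41% of their exon bases with any 1 neighbouring gene, and Mtor, Rheb, Rictor, Mapkap1 and Prr5 share none.

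Deptor, an inhibitor of mTOR found in both complexes, lies on the plus strand of chromosome 15 (55112317 to 55259271). It had 67.1, 68.6, 64.5, 62.1 and 65.3 CPM in the control libraries and 60.2, 71.5, 62.5, 78.8 and 73.2 CPM in the KO libraries. The KO libraries were more spread, with 3 above the control range and 1 below it. The SD was 2.48 CPM in control and 7.70 CPM in KO around means of 65.5 and 69.2 CPM (n = 5 each), and the log2 fold change was 0.079 (SE 0.068, 95% interval -0.069 to 0.23, edgeR adjusted p = 0.745).

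**Figure D3:**
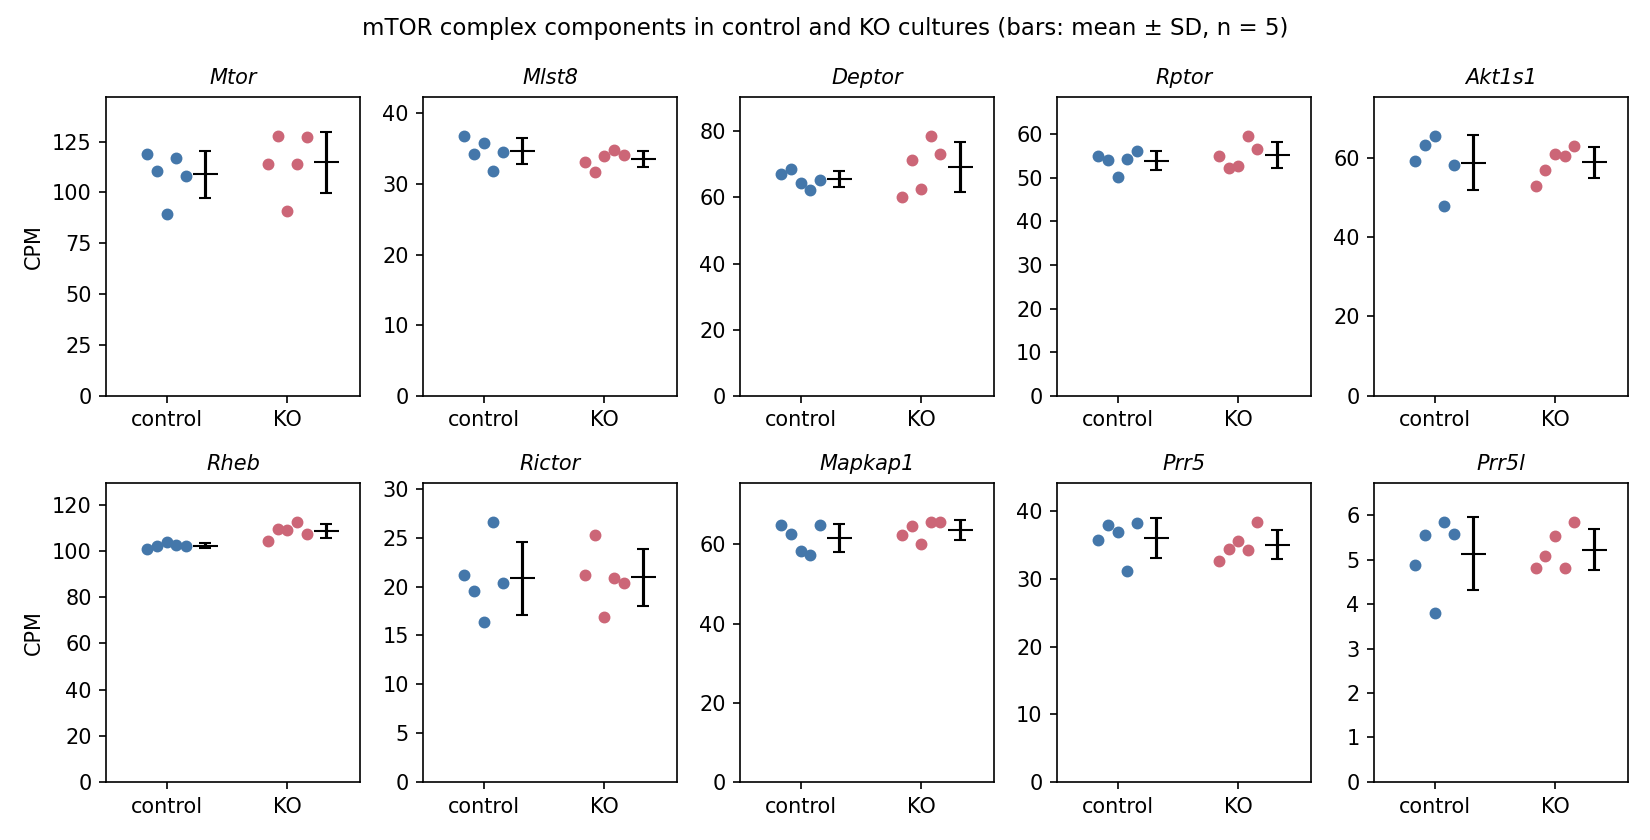
CPM of each gene (vertical axes, each from 0) in the 5 control (blue) and 5 KO (red) libraries, drawn in library order from left to right, with the mean and SD beside the points. Rheb is the only gene of the 10 whose groups do not overlap, with 101 to 104 CPM in control and 104 to 113 CPM in KO libraries.

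Rptor, Akt1s1 and Rheb belong to mTORC1. Rptor lies on the plus strand of chromosome 11 (119602905 to 119899576) and had 55.0, 54.1, 50.3, 54.2 and 56.1 CPM in the control libraries and 55.0, 52.2, 52.8, 59.7 and 56.5 CPM in the KO libraries. Its levels stayed within a small range in both groups, and 3 of the 5 KO libraries lay between the lowest and the highest control. The log2 fold change was 0.034 (SE 0.048, 95% interval -0.069 to 0.14, edgeR adjusted p = 0.877).

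Akt1s1 encodes PRAS40, an inhibitory mTORC1 subunit that AKT phosphorylates, and lies on the plus strand of chromosome 7 (44848991 to 44855421). It had 59.2, 63.2, 65.6, 47.8 and 58.1 CPM in the control libraries and 53.0, 56.9, 60.9, 60.5 and 62.9 CPM in the KO libraries. The lowest libraries were control 4 and KO 1, the pair that stood apart in the principal components. The means were nearly equal (58.79 ± 6.84 CPM in control and 58.83 ± 3.92 CPM in KO, SD, n = 5 each), with a log2 fold change of 0.00029 (SE 0.078, 95% interval -0.17 to 0.17, edgeR adjusted p = 0.999). Without control 4 and KO 1 the log2 fold change was -0.028.

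Rheb, the GTPase that activates mTORC1 and that the TSC complex turns off, lies on the minus strand of chromosome 5 (24802823 to 24842624). In the same order, the controls were at 101, 102, 104, 103 and 102 CPM and the KO libraries at 104, 110, 109, 113 and 107 CPM. Each KO library was above each control library, although KO 1 (104.3 CPM) was barely above control 3 (103.9 CPM). The groups did not overlap for 1 of the 10 members, against 3.97% of all genes tested. The mean was 102 ± 1.09 CPM in control and 109 ± 3.09 CPM in KO (SD, n = 5 each), which is a fold of 1.06 (95% interval 1.01 to 1.12). The unadjusted p was 0.0269, and after Benjamini-Hochberg adjustment over all genes the edgeR p was 0.319. The 2-sided exact permutation test over the libraries gave an unadjusted p = 0.00794, the smallest that 5 against 5 allows. Any gene whose groups do not overlap gets this value, so it adds nothing to the lack of overlap. Leaving out any of the 10 libraries gave log2 fold changes of 0.072 to 0.10. The library values of Rheb spread little (pooled SD 0.031 on the log2 CPM scale, against a median of 0.135 over all genes). The summed adipocyte and endothelial markers also did not overlap between the groups, and their part in the Rheb difference was not tested.

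Rictor, Mapkap1, Prr5 and Prr5l belong to mTORC2. Rictor lies on the plus strand of chromosome 15 (6708379 to 6800401) and had 21.2, 19.6, 16.4, 26.6 and 20.4 CPM in the control libraries and 21.2, 25.2, 16.9, 20.9 and 20.4 CPM in the KO libraries. Its group means were almost the same (20.9 ± 3.71 CPM in control and 20.9 ± 2.96 CPM in KO, SD, n = 5 each), while single libraries of 1 group lay as far apart as 16.4 and 26.6 CPM. The log2 fold change was 0.0074 (SE 0.12, 95% interval -0.26 to 0.27, edgeR adjusted p = 0.995).

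Mapkap1 encodes SIN1, the subunit that holds mTORC2 substrates, and lies on the plus strand of chromosome 2 (34406771 to 34624950). It had 64.8, 62.7, 58.4, 57.2 and 64.9 CPM in the control libraries and 62.2, 64.7, 60.1, 65.7 and 65.7 CPM in the KO libraries. The groups overlapped, with 2 KO libraries just above the highest control. The log2 fold change was 0.048 (SE 0.048, 95% interval -0.056 to 0.15, edgeR adjusted p = 0.800).

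Prr5 and Prr5l encode related proteins, Protor-1 and Protor-2, that bind rictor. Prr5 lies on the plus strand of chromosome 15 (84669620 to 84703673) and had 35.8, 37.9, 37.0, 31.1 and 38.3 CPM in the control libraries and 32.6, 34.4, 35.6, 34.3 and 38.4 CPM in the KO libraries. Control 4 was its lowest library and the groups overlapped, with a log2 fold change of -0.040 (SE 0.064, 95% interval -0.18 to 0.098, edgeR adjusted p = 0.896). Prr5l lies on the minus strand of chromosome 2 (101714285 to 101883027) and had 4.88, 5.55, 3.81, 5.85 and 5.58 CPM in the control libraries and 4.81, 5.09, 5.54, 4.81 and 5.85 CPM in the KO libraries. Control 3 was the lowest and the other 9 libraries lay close together. Its log2 fold change was 0.021 (SE 0.12, 95% interval -0.24 to 0.28, edgeR adjusted p = 0.979), and it rested on the fewest counts of the 10 genes. The log2 ratio of Prr5 to Prr5l in CPM was 2.82 ± 0.31 in control and 2.75 ± 0.057 in KO (SD, n = 5 each).

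The balance of the scaffolds was examined as the log2 ratio of Rictor to Rptor in CPM within a library. It was -1.37, -1.47, -1.61, -1.02 and -1.46 in control libraries 1 to 5 and -1.37, -1.05, -1.64, -1.51 and -1.47 in KO libraries 1 to 5. The groups covered the same range, and the means differed by -0.022 against an SD of 0.22 in each group. Within the control group alone the ratio varied 1.51-fold, with control 4 highest and control 3 lowest.

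Mtor and Rictor shared their lowest libraries, control 3 and KO 3. Relative to the mean of all 10 libraries on the log2 CPM scale, Mtor was at -0.31 in control 3 and -0.29 in KO 3, and Rictor was at -0.33 and -0.29 in the same libraries. In KO 2 both were above their means, Mtor by 0.20 and Rictor by 0.29. They parted in control 4, where Rictor was at 0.36 and Mtor at 0.076, and in KO 5, where Mtor was at 0.20 and Rictor at -0.020. Rptor, the mTORC1 scaffold, stayed between -0.12 and 0.13 in all 10 libraries. Both Mtor and Rictor have long exon sequence (10109 and 16930 bases, merged over transcripts). A length index was therefore computed for each library, as the median deviation of the longest quartile of genes (6643 bases of exon or more) minus that of the shortest quartile. It was 0.062, -0.0020, -0.12, 0.13 and -0.038 in control libraries 1 to 5 and 0.0044, 0.074, -0.12, -0.0013 and -0.0045 in KO libraries 1 to 5. The libraries lowest in Mtor and Rictor, control 3 and KO 3, were also the lowest in this index, and Rictor and the index were both highest in control 4. Rptor has 13471 bases of merged exon and did not share the pattern to this extent. Its longest transcript has 6594 bases, against 8564 for Mtor and 9312 for Rictor. The part of the length index in the spread of Mtor and Rictor between libraries was not tested. The index was also used as a covariate in the edgeR fit of KO against control, a setting chosen after seeing the data. With it the log2 fold change of Mtor was 0.11 (edgeR adjusted p = 0.38), against 0.076 without it. That of Rictor was 0.058 (edgeR adjusted p = 0.66), against 0.0074 without it. The index did not separate the groups.

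**Figure D4:**
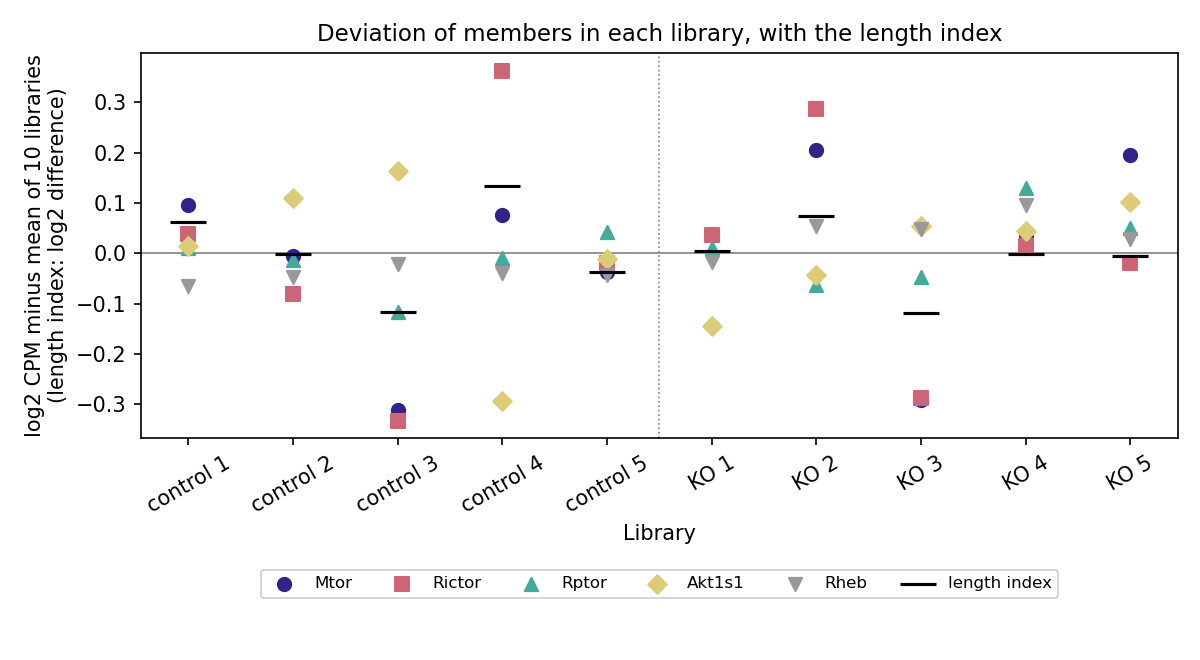
Log2 CPM minus the gene's mean over the 10 libraries (vertical axis) for Mtor, Rictor, Rptor, Akt1s1 and Rheb in each library (horizontal axis), with the length index, a log2 difference between long and short genes, as black dashes and a dotted line between the groups. Mtor and Rictor are near -0.3 in control 3 and KO 3, where the index is lowest, and Rheb stays between -0.064 and 0.096.

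The genes most like a member were taken as those with the smallest mean absolute difference in centred log2 CPM over the 10 libraries, among 9302 genes of at least moderate level. For Mtor these were Fyco1, which encodes an autophagosome transport adaptor (0.029), Ptpn14, a phosphatase (0.042), and Dicer1, the nuclease of small RNA maturation (0.042). For Rictor they included Pcm1, a centriolar satellite protein (0.034), and Setd2, a histone methyltransferase (0.042). For Rptor they were Zfp180 (0.021), Parva (0.023) and Kiz (0.026). The 5 genes named as most like Mtor or Rictor have 7458 to 16750 bases of exon, all in the longest quartile, and those most like Rptor have 2278 to 10157 bases. The values are descriptions over libraries that share 1 preparation method.

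The sequences before the transcription start are printed for Mtor and Rictor, which had their lowest libraries in common, and for Rptor, which was also lowest in control 3 but stayed nearer to its mean. They are RefSeq sequences on GRCm38.p6, 5′ to 3′ on the gene's strand, and capitals mark the motifs found.
Mtor, chr4:148448332-148448581: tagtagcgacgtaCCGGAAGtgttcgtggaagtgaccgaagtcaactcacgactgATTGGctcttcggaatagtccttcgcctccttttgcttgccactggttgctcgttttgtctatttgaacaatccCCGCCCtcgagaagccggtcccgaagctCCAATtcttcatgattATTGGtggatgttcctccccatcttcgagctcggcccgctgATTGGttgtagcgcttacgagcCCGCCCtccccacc
Rictor, chr15:6708131-6708378: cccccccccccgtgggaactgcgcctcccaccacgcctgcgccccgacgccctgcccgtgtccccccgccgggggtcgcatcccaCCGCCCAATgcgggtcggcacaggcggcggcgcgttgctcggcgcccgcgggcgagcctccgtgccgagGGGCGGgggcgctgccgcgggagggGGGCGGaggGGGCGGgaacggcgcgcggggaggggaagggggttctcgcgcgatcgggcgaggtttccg
Rptor, chr11:119602655-119602904: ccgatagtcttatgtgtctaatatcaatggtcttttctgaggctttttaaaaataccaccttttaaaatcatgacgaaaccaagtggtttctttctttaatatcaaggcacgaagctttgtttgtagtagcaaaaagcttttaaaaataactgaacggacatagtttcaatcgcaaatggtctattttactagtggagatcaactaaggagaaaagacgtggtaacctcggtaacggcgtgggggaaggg
The motifs searched on both strands were the E-box CACGTG, the TATA box TATAAA, the CCAAT box CCAAT, the GC box GGGCGG and the ETS core CCGGAAG. The stretch of Mtor held 4 CCAAT boxes, 2 GC boxes and 1 ETS core. That of Rictor held 1 CCAAT box, which overlaps a GC box, and 4 GC boxes in all, with a GC content of 81.5%. That of Rptor held none of the 5 motifs and had a GC content of 37.6%. Over the windows of 300 bases around a start, the median GC content was 52.7% for all 32851 windows. Members with several starts have several windows, 13 for the 9 members with an entry. The CCAAT box was in 37.4% of all windows and in 5 of the 13 member windows (Mtor, Rictor, Prr5 and Prr5l). The GC box was in 35.7% of all windows and in 9 of the 13, from 7 of the 9 members. The ETS core was in 8.86% and in 3 of the 13 (Mtor, Akt1s1 and Mapkap1). The E-box was in 7.15% of all windows and in 1 of the 13 member windows, that of Rheb. It lay 96 bases before the RefSeq start at 24842361 on the minus strand. GENCODE M21 lets the gene begin further upstream, at 24842624, so that the same letters lie 167 bases inside the gene, in an exon of that annotation. They are shown in capitals with their flanks.
Rheb, chr5:24842440-24842469: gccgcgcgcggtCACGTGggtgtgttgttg
A match is a stretch of letters and does not show that a factor bound there.

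The rest of the mTOR pathway was examined with 8 lists. Of 188 genes, 182 were tested, and 2 were called higher and 0 lower in KO by edgeR's quasi-likelihood test, which is 1.10% of those tested against 2.17% of all genes. By direction, 0.308% of all genes were called higher and 1.86% lower in KO, so the share called higher was above that of all genes, on 2 genes. The median log2 fold change of the 182 genes was 0.021. An unadjusted p under 0.05 was found for 15 of the 182, against 11.9% of all genes. Both called genes, Atf4 and Mthfd2, were in the list of Atf4 and its target genes. The list of the TSC complex and the stress inhibitors that act through it had 6 genes, among them the Rheb-like gene Rhebl1. Of the 6, 2 had a fold change above 0 (Ddit4 and Rhebl1) and 4 below, with 0 called by edgeR and a median of -0.052. Tsc2, which encodes the GTPase-activating subunit that turns off Rheb, was at 70.4 ± 3.41 CPM in control and 64.4 ± 3.19 CPM in KO (SD, n = 5 each). All 5 KO libraries of Tsc2 lay below all controls, from 59.6 to 67.5 CPM against 68.0 to 75.7 CPM, and its log2 fold change was -0.13 (SE 0.048, edgeR adjusted p = 0.264). Its direction was thus opposite to that of Rheb, and neither gene passed the limit. Ddit4, which encodes the stress-induced mTORC1 inhibitor REDD1, had a log2 fold change of 0.35 (SE 0.16, edgeR adjusted p = 0.405), with overlapping groups of 86.7 to 152 CPM in control and 102 to 179 CPM in KO. It was called in 2 of 19 alternative fits, without control 4 (log2 fold change 0.51, edgeR adjusted p = 0.0458) and without both control 4 and KO 1.

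Among the genes that carry the amino acid signal, the 9 tested members of the Rag GTPases and Ragulator all had a fold change above 0, with a median log2 value of 0.033 and 0 called. Their leading genes were Rraga (log2 fold change 0.073, edgeR adjusted p = 0.551) and Lamtor3 (0.064, adjusted p = 0.630). The 21 genes of the GATOR complexes and the amino acid sensors divided into 10 above 0 and 11 below, with 0 called and a median of -0.010. Of these, Sec13, a shared component of GATOR2 and vesicle coats, was at -0.14 (edgeR adjusted p = 0.260). It was called in 2 of 19 alternative fits, without control 4 (-0.18, edgeR adjusted p = 0.0413) and with the length index as a covariate. The leucine sensor Sesn2 was at 68.3 ± 1.67 CPM in control and 72.8 ± 1.84 CPM in KO (SD, n = 5 each), with no overlap between groups and an edgeR adjusted p of 0.308. The 8 assembly factors of the TTT and R2TP complexes divided into 3 above 0 and 5 below, with 0 called, a median of -0.019, and Wac (0.11, edgeR adjusted p = 0.205) and Ruvbl2 (0.11, adjusted p = 0.476) as the leading genes.

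Downstream of the complexes, the 17 tested mTORC1 substrates and effectors divided into 12 above 0 and 5 below, with 0 called and a median of 0.041. Eif4ebp1, which encodes the translation repressor 4E-BP1, was at 252.5 to 287.5 CPM in control and 290 to 309 CPM in KO libraries and did not overlap. Its log2 fold change was 0.12 (SE 0.041, edgeR adjusted p = 0.226). Tfe3, a transcription factor of lysosomal genes, was at -0.12 (adjusted p = 0.336). The 11 mTORC2 substrates divided into 6 above 0 and 5 below, with 0 called and a median of 0.0097, and the insulin-responsive kinase gene Akt2 was at 332 ± 10.3 CPM in control and 350 ± 11.4 CPM in KO (SD, n = 5 each, edgeR adjusted p = 0.473). Prkcd was at -0.12 (adjusted p = 0.481). The 96 tested TOP mRNAs, whose translation mTORC1 controls through their 5′ ends and which encode mainly ribosomal proteins, had a median of 0.018 and 0 called by edgeR, and 0 of them had an unadjusted p under 0.05. Rps6, the substrate of the S6 kinases, was at 0.092 (adjusted p = 0.426), and the low Rpl32l was at -0.42 (adjusted p = 0.446) on 11 to 26 counts per library.

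In the main edgeR fit, the list of Atf4 and its target genes held the only calls in the pathway. ATF4 is a transcription factor of amino acid and folate metabolism whose synthesis mTORC1 and the integrated stress response both raise. Atf4 was at 297, 317, 322, 343 and 331 CPM in the controls and 369, 358, 380, 356 and 369 CPM in the KO libraries, so that each KO library was above each control. The mean rose from 322 ± 16.9 to 367 ± 9.65 CPM (SD, n = 5 each), a log2 fold change of 0.19 (SE 0.042, 95% interval 0.095 to 0.28, edgeR adjusted p = 0.0388). Mthfd2, an enzyme of mitochondrial folate metabolism, had 93.0, 98.7, 93.2, 96.7 and 94.2 CPM in control and 105, 122, 137, 119 and 127 CPM in KO libraries. All KO libraries were above all controls, with KO 1 the closest to them. Its log2 fold change was 0.36 (SE 0.061, 95% interval 0.23 to 0.49, edgeR adjusted p = 0.00722). Of all 15 genes of the list, 13 had a fold change above 0, and the median was 0.16. By library, 12 to 14 of the 15 genes were above their own mean over the 10 libraries in KO 2 to KO 5, but only 2 were in KO 1 and 1 to 6 in the controls. In KO 1, Atf4 itself and Shmt2 (119 CPM) were above their means while the other 13 genes were not, and KO 1 is also a library that stood apart. In the main fit 2 of the 15 genes were called, beside 309 genes of the whole table. Without control 4 and KO 1, 7 of the 15 were called, beside 498 genes of the whole table, and without KO 1 alone 4 were called, beside 325 of the whole table. Without control 4 alone 3 were called, beside 442. With any other single library left out, only Mthfd2 was called. Atf4 was called under 7 of 19 alternatives, among them leaving out control 4 but not leaving out any other library, and Mthfd2 under 18 of 19. The exception for Mthfd2 was the endothelial covariate, under which 0 genes of the whole table were called. The endothelial markers were lower in KO libraries, and their part in the higher Atf4 and Mthfd2 levels was not tested.

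**Figure D5:**
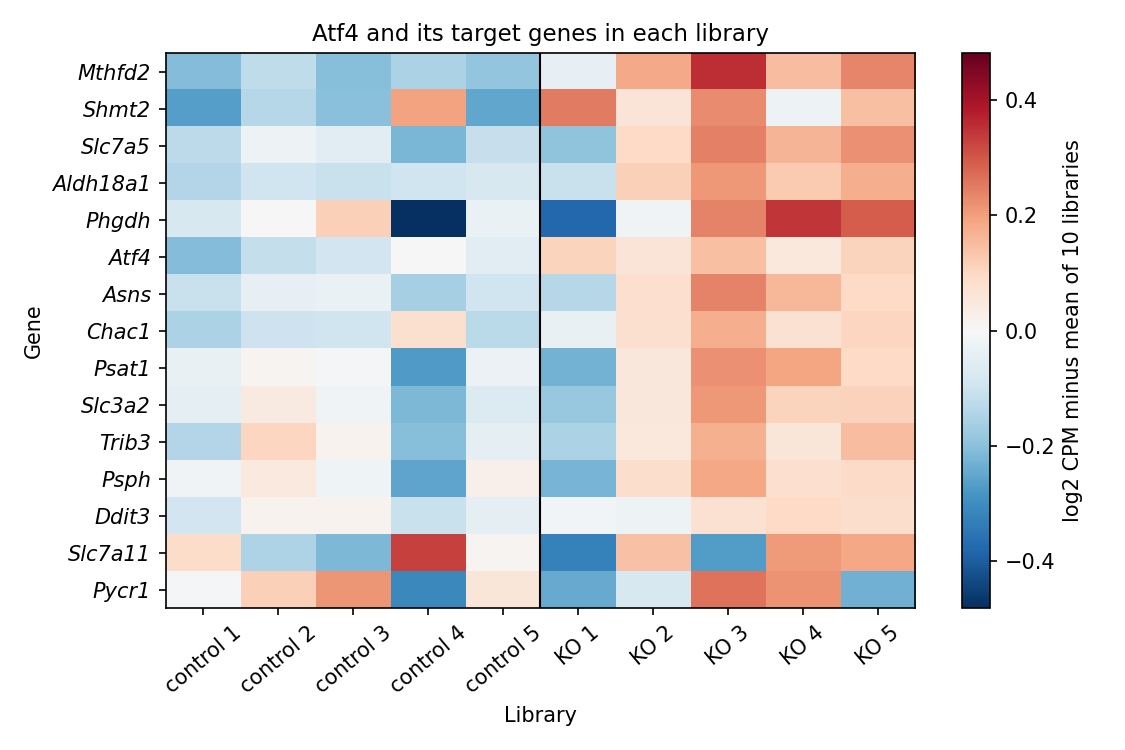
Log2 CPM minus the mean of the 10 libraries (colour, red above and blue below) for the 15 genes of the ATF4 list (vertical axis, ordered by fold change) in each library (horizontal axis), with a line between control and KO. Most genes are red in KO 2 to KO 5, where 12 to 14 of the 15 are above their means, while KO 1 has 2.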

How the data were processed

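RNA-seq libraries of 5 control and 5 KO adipocyte cultures were analyzed from fragment counts per gene. The authors mapped paired reads with STAR to GRCm38.p6 and counted them with featureCounts (the labels name the build mm10), and the deposited counts were not normalized, filtered or pooled. In the table, 0 columns belonged to other samples. Low genes were removed with filterByExpr (minimum count 10), TMM factors were computed, and KO was tested against control on all 14270 remaining genes with the edgeR 4.0.16 quasi-likelihood test in R 4.3.3 with Benjamini-Hochberg adjustment and a limit of 0.05. Log2 CPM used a prior count of 2. Intervals are 95% intervals of the fit, and permutation tests were exact and 2-sided. Scripts were tested on simulated data. Positions and lengths come from GENCODE M21, where 52125 of 56748 identifiers were found, and 0 of the 10 members had the same identifier version as in the table, so the counted annotation was another release. The members and gene lists were chosen with earlier results of these data known. All members were named, and from each list the called genes or otherwise the 2 of smallest p. Of the genes most like a member, 1 is not reported here. Rragd and Shmt2 were named with their values already known. Alternatives were DESeq2 1.42.0, limma 3.58.1 voom with quality weights, other size factors and filters, a replicate block, an endothelial covariate, libraries left out and, chosen after seeing the data, the length index as a covariate.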

Additional observations from a re-analysis of the deposited data

Results flagged for a closer look

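Of the genes named in the text, 4 had a library far from the other 4 libraries of its group, and each time it was control 4, which also stood apart in the principal components. Ddit4 was at 152 CPM in control 4 against 86.7 to 103 CPM in the other controls, a gap of 0.752 of the group's range. Tfe3 was at 54.1 CPM against 59.7 to 61.1 CPM, a gap of 0.805 of the range. Rragd was at 4.98 CPM against 1.73 to 2.12 CPM, a gap of 0.881, and Shmt2 at 114 CPM against 83.0 to 90.8 CPM, a gap of 0.751. Rragd and Shmt2 were picked with their values already known. The limit for 5 libraries is 0.71, which chance passes in about 5% of groups. Over the 87 tested pathway genes outside the TOP mRNAs, 24 of 174 groups (13.8%) passed the limit, and 16 of these were through control 4. Of the 20 groups of the 10 mTOR complex genes, 0 passed it.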

How the results depend on the processing

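Over 190 fits of a member under an alternative, 0 passed the limit, and the smallest adjusted p was 0.170, for Rheb. The sign changed in 21 of them. With the endothelial covariate, which does not overlap between groups and so cannot be told apart from genotype, log2 fold changes turned to -0.35 (Mtor), -0.75 (Deptor), -0.25 (Rptor), -0.48 (Akt1s1), -0.039 (Rheb), -0.30 (Mapkap1) and -0.15 (Prr5l), Fam20c at -0.60 was no longer called, and 0 pathway genes were called. Akt1s1 also turned to -0.0040 with a minimum count of 50, -0.018 with limma voom, -0.015 with the length index and -0.028 without control 4 and KO 1. With each library left out, Akt1s1 ranged from -0.062 to 0.045, Rictor from -0.064 to 0.11 and Prr5l from -0.065 to 0.072. The 2 called pathway genes became 1 without the filter on low counts, 4 with voom, 4 with the length index, 9 without control 4 and KO 1, and 1 to 6 with each library left out. Those were 6 without control 4, 4 without KO 1 and 1 without any of the other 8. With the order of levels taken from the longest transcript, 6 of 9 neighbouring pairs kept their order. The causes were not tested. The 309 calls over all genes became 484 with DESeq2, 498 without control 4 and KO 1, and 187 to 442 with each library left out, of which 187 without KO 2, 194 without KO 5 and 205 without control 5.

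The labels do not say whether replicate numbers pair the samples. Correlations of same-numbered deviations ranged from -0.25 to 0.26, and so few values cannot exclude a pairing. With the replicate block, 0 members and 1 pathway gene (Mthfd2) were called. Prr5l had the fewest counts (81 to 148 per library). A change within a member's interval was not detectable with 5 libraries a group.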

Other observations

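Rragd, which encodes a Rag GTPase and was the Rag or Ragulator gene with the highest log2 fold change, was at 1.73, 1.87, 2.12, 4.98 and 1.90 CPM in the controls, in library order, and 4.96, 3.34, 2.53, 2.61 and 3.36 CPM in the KO libraries. Its highest values were in control 4 and KO 1, the libraries that stood apart. The log2 fold change was 0.42 (SE 0.30, edgeR adjusted p = 0.666), and it was called under 2 of 19 alternatives.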
